A study of Mus musculus with 77 samples.

Results

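Neurogenin 3 (Ngn3, gene symbol Neurog3) is the basic helix-loop-helix transcription factor that commits pancreatic progenitors to the endocrine fate. The comparison described here is between mouse pancreatic ductal organoids that had expressed WT Ngn3 or phosphomutant 6S-A Ngn3 for 8 days. In 6S-A Ngn3 all 6 serine-proline sites carry alanine in place of serine, so that proline-directed kinases such as Cdks cannot phosphorylate them. The libraries were taken by their labels, as the GFP-sorted WT and 6S-A samples at 8 days with over 1000000 reads on genes. This gave 10 of the 77 libraries of the series, 4 from WT and 6 from 6S-A organoids, and 1 further WT pool with 849278 reads was left out. Technical repeats were summed, which left 3 biological replicates of each protein, and replicates with the same number were treated as pairs.

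All organoids were grown from pancreatic ducts of C57BL/6 mice and infected with lentiviruses. The Ngn3 proteins were HA-tagged and joined to GFP through a 2A peptide under a doxycycline-inducible promoter, and each library was made from a pool of 50 FACS-sorted GFP+ cells. Replicates 1 and 2 were at passage 2, while replicate 3 was at passage 5 for both proteins, so that replicate 3 and later passage cannot be told apart. The labels call the 8-day controls no-color cells, which came from the same WT and 6S-A organoid types, and at 2 days of induction the series holds GFP-only, WT and 6S-A libraries at passage 2. The labels give biological replicate numbers without naming animals or cultures, so p-values measure the spread between these samples.

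As background, Ngn3 is active only briefly in the embryo. It switches on a set of downstream transcription factors, among them Neurod1, Insm1, Rfx6 and Isl1, and cells that carry it leave the cell cycle, leave the duct epithelium and later make hormones packed into dense-core granules. Adult ductal cells do not normally express it, so the organoids test how far the introduced protein takes a duct cell along this path.

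The retained pools held 3034680 to 4966281 reads on genes in WT and 3945880 to 6827457 in 6S-A cells. Summed over repeats, WT replicates 1, 2 and 3 held 9756793, 3033282 and 4964691 reads of the genes tested, against 15150839, 8475398 and 6825329 for 6S-A. Levels below are counts per 1000000 reads (CPM), listed for replicates 1, 2 and 3 in that order, and differences are log2 6S-A minus WT from the fit. Detection was set at 3 reads, which corresponds to 0.585 CPM on average in WT and 0.313 CPM in 6S-A replicates and covers counting error only.

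The cells carried a ductal expression profile. Of 27 keratin, surface and transport genes of ducts 26 were tested, and their summed level was 20706 to 23786 CPM in WT and 14848 to 31821 CPM in 6S-A replicates. Spp1 alone had means of 8554 CPM in WT and 10754 CPM in 6S-A cells. The list was not high throughout, as Cftr, Aqp1, Aqp5 and Krt20 had means of at most 2.85 CPM in either group. Markers of other cell types were rare. The acinar list summed to 1.83 to 63.4 CPM in WT and 0.286 to 18.7 CPM in 6S-A cells, and 7 of its 14 genes, including Cpa1, Prss1 and Ptf1a, had no read in any of the 6 replicates. The mesenchymal list of 11 genes summed to at most 9.67 CPM in WT and 12.5 CPM in 6S-A cells, the endothelial list of 8 to 9.86 and 11.9 CPM, and the immune list of 10 to 16.7 and 13.6 CPM. Col1a2, Col3a1, Pdgfra, Cdh5, Cd3e and Lyz2 were at 0 in all 6 replicates.

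Of the 19696 genes tested, 0 (0%) passed the threshold between 6S-A and WT at 8 days in the quasi-likelihood test of edgeR (threshold 0.05 on p-values after Benjamini-Hochberg adjustment), and the lowest adjusted p was 1. At an unadjusted p under 0.05, 265 genes were higher (1.35%) and 286 lower (1.45%) in 6S-A cells. These 551 genes compare with 985 that a uniform spread of p-values would give. DESeq2 called 19 genes, of which 15 had fitted log2 differences from 18.0 to 20.6 or from -20.3 to -17.1 and the others were Pclaf, Kntc1, Wnt7a and Zfpm2, and edgeR fitted to the 6 WT and 6S-A replicates alone called 13. The replicates of the 2 groups did not overlap for 569 genes that were higher in 6S-A (2.89%) and 464 that were lower (2.36%). Every gene described below therefore missed the threshold unless a sentence says otherwise. Missing it does not show that WT and 6S-A cells were alike, and each difference is given with its standard error.

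Neurog3 (chr10:62133090-62134763, GRCm38, + strand) was read first, as the introduced gene. The count table adds reads of the transgene and of the endogenous gene. Its level was 6.69, 43.9 and 13.7 CPM in WT and 9.50, 12.2 and 14.3 CPM in 6S-A replicates. WT replicate 2 was the highest and the groups overlapped. No-color cells were at 0 to 0.947 CPM. The difference was -0.45 on the log2 scale (standard error 0.74, unadjusted p = 0.551), smaller than its error. Without replicate 2 of every group the difference was 0.21. Neurog3 overlaps Fam241b on the opposite strand, and the strand setting of the counting was not given in the sources used here. Because each library is a pool of cells, fewer cells of a type and less RNA per cell cannot be told apart, here and in the results that follow.

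The endocrine transcription factors stood higher with 6S-A Ngn3 in part of the list. Of 26 genes 21 were tested, and 13 were higher (61.9%, against 49.1% of all genes). Rfx6, Isl1, St18 and Neurod1 were the 4 higher at an unadjusted p under 0.05 (19.0%, against 1.35% of all genes). None was lower at that level, against 1.45% of all genes. The list median was 0.14 on the log2 scale against -0.01 over all genes tested. The medians of the separate pairs were 0.42, 0.58 and 0.06, and the list median turned to -0.07 without replicate 1 of every group.

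Rfx6 (chr10:51677756-51730432), a winged-helix factor needed for islet formation, was at 47.4, 4.57 and 5.88 CPM in WT and at 113, 51.8 and 32.6 CPM in 6S-A replicates. It was higher in 6S-A in every pair, although WT replicate 1 overlapped the 6S-A range. The difference was 2.27 on the log2 scale (standard error 0.57, unadjusted p = 0.000902). By pool, Rfx6 was at 67.8 and 26.3 CPM in WT replicate 1 and at 113, 132 and 97.2 CPM in 6S-A replicate 1. In the fit of the 6 replicates alone its adjusted p by edgeR was 0.000855, and no-color cells were at 0 to 0.554 CPM.

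Isl1 (chr13:116298281-116309689), a LIM homeodomain factor of all islet lineages, was at 71.8, 0 and 0 CPM in WT and at 149, 45.9 and 55.0 CPM in 6S-A replicates. The 2 WT replicates without a read allow at most 0.915 and 0.569 CPM. The log2 difference was 4.26 (standard error 1.48, unadjusted p = 0.0198), and it ran from 2.77 without WT replicate 3 to 12.1 without WT replicate 1, the one WT replicate with reads. The WT pool that was left out for its depth held 10.9 CPM of Isl1, so the lack of reads did not extend to every pool of WT replicate 2.

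St18, a zinc finger factor of the Myt family, was at 41.2, 11.3 and 2.47 CPM in WT and at 81, 19.3 and 27.9 CPM in 6S-A cells, a log2 difference of 1.65 (standard error 0.55, unadjusted p = 0.00771). Neurod1, a direct Ngn3 target, was at 37.0, 20.4 and 0.759 CPM in WT and at 54.1, 24.7 and 14.9 CPM in 6S-A cells, a difference of 1.40 (standard error 0.65, unadjusted p = 0.0467). Both were higher in 6S-A in each pair and both groups overlapped, and without replicate 3 of every group the St18 difference was 0.89 and that of Neurod1 0.43. Neurod1 shares sequence with Cerkl on the same strand in the annotation.

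Pax6, an islet homeodomain factor, was higher by 1.12 (standard error 0.54, unadjusted p = 0.0501) and in each pair. Insm1, a zinc finger repressor of the endocrine path, was at 18.5, 21.7 and 13.8 CPM in WT and 17.2, 51.1 and 24.9 CPM in 6S-A cells, a difference of 0.67 (standard error 0.52). Atoh8 differed by -0.03 (standard error 0.46), the Notch ligand Dll1 by -0.22 (standard error 0.46) and Nkx2-2 by 0.01 (standard error 0.21). Myt1 was at 15.1, 4.88 and 0 CPM in WT and 32.6, 9.09 and 12 CPM in 6S-A replicates, a difference of 1.73 (standard error 1.10), from 0.72 without WT replicate 3 to 2.66 without WT replicate 1. Irx1 and Mafa had no read in the 6 replicates. The plot of replicate values shows Neurog3, Neurod1, Rfx6 and Isl1 beside hormone, cell cycle and signalling genes.

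**Figure D1:**
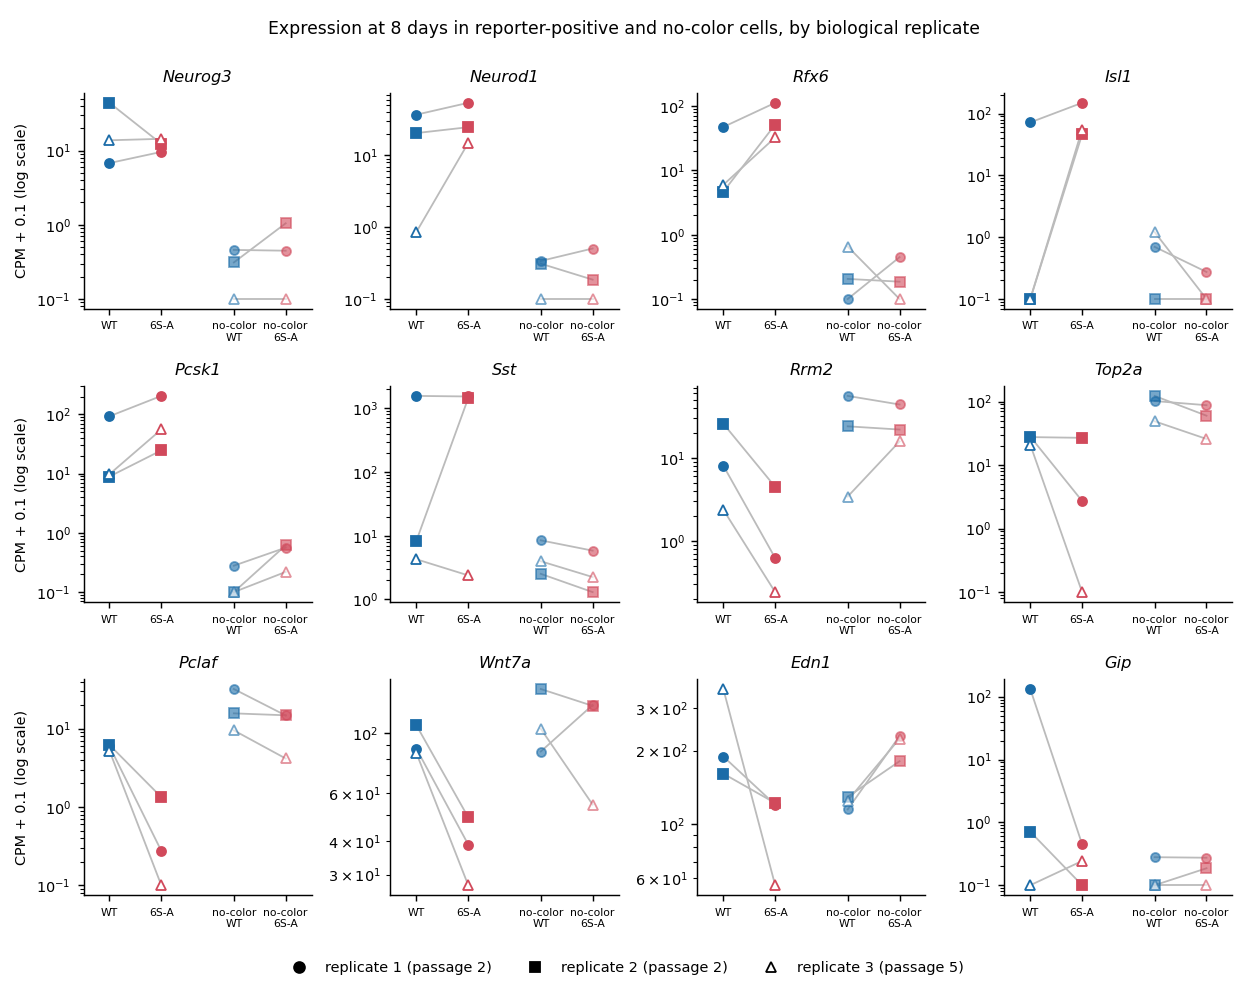
Levels of 12 genes in each replicate at 8 days, as CPM with 0.1 added on a log axis, for WT Ngn3, 6S-A Ngn3 and the no-color cells of both organoid types. Lines join WT and 6S-A replicates with the same number and open triangles mark replicate 3 at passage 5; Rfx6 and Isl1 lie higher in 6S-A than in WT cells in each pair, and Wnt7a and Edn1 lie lower.

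Hormone genes were set by single replicates, and with replicates left out their median ran from 0.01 without replicate 2 of every group to 6.09 without WT replicate 1. Of 17 hormone genes 6 had a read in enough libraries to be tested, 5 of them were higher with a median of 1.30 and pair medians of 0.06, 6.36 and 0.29, and Gcg, Ins1, Ins2, Nts, Tac1 and Ucn3 had none in any of the 6 replicates. Sst, the delta cell hormone somatostatin, was at 1560.2, 8.23 and 4.17 CPM in WT and at 1529, 1440.05 and 2.29 CPM in 6S-A replicates. It was high in replicate 1 of both proteins, in replicate 2 only with 6S-A and in neither at passage 5. The log2 difference was 2.31 with a standard error of 2.45, so the spread between replicates exceeded it, and without replicate 2 of every group it turned to -0.15. The shallow WT pool of replicate 2 that was left out held 403 CPM of Sst.

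Ghrl, which encodes the stomach and islet hormone ghrelin, was at 1401, 1.22 and 2.66 CPM in WT and at 1497, 97.3 and 33.2 CPM in 6S-A cells. It was higher with 6S-A in each pair, most clearly in replicates 2 and 3, and its difference was 1.40 (standard error 2.00), from 0.40 without WT replicate 2 to 5.99 without WT replicate 1. Iapp, the beta cell peptide amylin, was at 28.3, 0.305 and 0 CPM in WT and at 28.8, 50.2 and 0.143 CPM in 6S-A replicates. Its difference was 2.19 (standard error 1.19, unadjusted p = 0.0831), with 0.18 when replicate 2 of every group and 6.62 when WT replicate 1 was left out. Ppy had 19 reads, all in WT replicate 1, and Cck had 37 reads in WT replicate 1 and 125 in 6S-A replicate 1.

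Gip, the incretin gene of intestinal K cells (chr11:96024545-96030831), had the largest negative difference among the leading genes, -7.19 (standard error 1.54, unadjusted p = 0.000181). Its levels were 132, 0.610 and 0 CPM in WT and 0.350, 0 and 0.143 CPM in 6S-A replicates. The WT value came from 1 of the 2 pools of replicate 1, with 259.8 CPM against 0.184 CPM in the other pool. The 2 groups overlapped, and without WT replicate 1 the difference was -1.54.

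Genes of the secretory granule were mostly higher with 6S-A Ngn3, led by the prohormone convertases. All 19 list members were tested, 12 were higher, 2 of them (Pcsk1 and Pcsk2) at an unadjusted p under 0.05, and the median was 0.67 with pair medians of 0.31, 0.09 and 1.00. The summed level was 2722, 1461 and 302 CPM in WT and 3379, 1594 and 731 CPM in 6S-A replicates. Without replicate 3 of every group the median was 0.03. In no-color cells 14 of the 19 genes were higher. The median of the GFP+ minus no-color difference was -0.02, with 9 of 19 higher.

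Pcsk1 (chr13:75089826-75134861), the convertase that opens proinsulin and other prohormones, was at 93.0, 8.84 and 9.67 CPM in WT and at 205, 24.6 and 55.6 CPM in 6S-A cells. Each 6S-A replicate exceeded its WT partner. The difference was 1.67 on the log2 scale (standard error 0.46, unadjusted p = 0.00183). At 2 days Pcsk1 was higher in 6S-A than in WT cells by 1.00 on the same scale (edgeR quasi-likelihood test, Benjamini-Hochberg adjusted p = 0.0212). It was also one of the genes higher with both proteins than with GFP only at that time. In no-color cells the Pcsk1 difference was 2.51 and that of Pcsk2 1.85, where the levels of Pcsk1 were 0 to 0.517 CPM and those of Pcsk2 0 to 0.603 CPM.

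Pcsk2, the partner convertase, was at 186, 11.6 and 0 CPM in WT and at 276, 51.1 and 9.15 CPM in 6S-A cells, a difference of 1.83 (standard error 0.79, unadjusted p = 0.0413). Scgn, a calcium-binding protein of endocrine cells, was at 86.4, 0.305 and 0 CPM in WT against 151, 45.7 and 84.3 CPM in 6S-A replicates, a difference of 3.19 (standard error 1.85). Both were higher with 6S-A in every pair, with WT replicate 1 inside the 6S-A range. With replicates left out the Pcsk2 difference ran from 1.10 to 3.42 and that of Scgn from 1.80 to 9.34, both highest without WT replicate 1. The granins varied. Chga was at 274, 228 and 0.759 CPM in WT and 649, 23.3 and 10.3 CPM in 6S-A cells, a difference of 0.55 (standard error 1.13) that turned to -0.53 without replicate 3 of every group, and Chgb differed by -0.02 (standard error 1.27). Scg2, Scg3 and Scg5 were at 1.94 (standard error 1.11), 1.46 (standard error 0.70) and 1.05 (standard error 0.53) on the log2 difference scale, and Scg3 and Scg5 were higher in each pair, while Scg2 ran from 0.84 without WT replicate 2 to 5.32 without WT replicate 1.

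Lists for regulated secretion pointed the same way without single genes of low adjusted p. Of the 18 genes of beta cell glucose sensing and secretion 14 were tested and 12 were higher, with a median of 1.37, although 0 had an unadjusted p under 0.05. The potassium channel gene Kcnk16 was at 22.0, 0 and 0 CPM in WT and 38.9, 6.51 and 3.29 CPM in 6S-A replicates. Of 22 exocytosis genes 20 were tested, 15 were higher and 10 were higher in all 3 pairs (50% against 11.1% of all genes), with a median of 0.62. Cadps and Baiap3, both needed for dense-core vesicle release, were the 2 with an unadjusted p under 0.05 (10%, against 1.35% of all genes). Their differences were 1.97 (standard error 0.76) and 1.41 (standard error 0.50), beside 2.99 and 0.64 in no-color cells. The no-color median of the list was 0.07, with 11 of 20 higher.

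Neuronal genes, many of which endocrine cells share, gave 18 higher members of 21 tested, a median of 0.66 and pair medians of 0.86, 0.12 and 1.27. Nxph1, a secreted ligand of neurexins, was at 12.1, 12.8 and 6.64 CPM in WT and 59.8, 12.2 and 28.3 CPM in 6S-A cells, a difference of 1.44 (standard error 0.65, unadjusted p = 0.0396). The neurofilament genes Nefl and Nefm differed by 2.58 (standard error 1.32) and 2.13 (standard error 1.19), and they overlap each other in the annotation. Nefl ran from 1.65 without replicate 3 of every group to 3.80 without replicate 2 of every group. Nefm ran from 1.37 without WT replicate 3 to 3.55 without WT replicate 1, and Nxph1 from 0.87 without replicate 1 of every group to 2.23 without WT replicate 2. In no-color cells the neuronal median was -0.31, with 10 of 21 higher. The genes did not move alike there, with differences of 4.34 for Nefm, -0.31 for Nefl and -1.18 for Nxph1.

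Of the 12 genes that led the higher direction, all 12 were higher in each pair and 6 did not overlap between groups. The ranking by p favors this, and the shares of all genes were 11.1% and 2.89%. Besides Rfx6, Pcsk1 and St18 the 12 held Cd177, Lrrtm3, Miat, Sstr2, C1qtnf12, Dbpht2, Ctsf, Kctd20 and Pdp1. Cd177, which encodes a GPI-anchored surface protein best known from neutrophils, was at 27.6, 3.05 and 0 CPM in WT and 106, 92.5 and 25.6 CPM in 6S-A cells. Its log2 difference was 4.0 (standard error 0.88, unadjusted p = 0.000564), and 6.05 without replicate 1 of every group. The 6S-A pools of Cd177 were uneven, with 163, 139 and 14.1 CPM in replicate 1 and 194 and 3.99 CPM in replicate 2.

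Sstr2, a somatostatin receptor gene, was at 8.58, 0.610 and 11.2 CPM in WT and 20.8, 15.2 and 35.6 CPM in 6S-A replicates, and the groups did not overlap. Its difference was 2.52 (standard error 0.78, unadjusted p = 0.00435), and 1.52 without replicate 2 of every group. The long noncoding RNA Miat was at 0.723, 1.22 and 0 CPM against 36.4, 5.16 and 5.43 CPM, and Lrrtm3, a synaptic adhesion gene, at 1.54, 0 and 0 CPM against 16.8, 1.80 and 20.4 CPM, again without overlap. Tspan18, a tetraspanin gene named here after its values were seen, had no read in WT and 3.67, 0.112 and 24.3 CPM in 6S-A replicates, so that replicate 3 carried most of its level. In no-color cells 10 of the 12 genes leading the higher direction were also higher with 6S-A, with a median of 0.90 and 2 at an unadjusted p under 0.05. The no-color difference was 1.13 for Rfx6, at levels of 0 to 0.554 CPM, and for Pdp1 and Kctd20 1.45 and 0.64 on the log2 scale, beside 1.21 and 0.96 in GFP+ cells.

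Genes of DNA replication and mitosis had the lowest median of the 22 lists. All 30 list members were tested, 29 were lower with 6S-A Ngn3, and the median was -0.98 on the log2 scale. Rrm2, Kif11, Cdc6, Mcm5 and Mcm3 were the 5 lower at an unadjusted p under 0.05 (16.7%, against 1.45% of all genes). In all 3 pairs 6 members were lower (20%, against 10% of all genes). The pairs did not move alike, with medians of -0.88, 0.36 and -2.46. The summed level was 629, 657 and 575 CPM in WT and 482, 645 and 327 CPM in 6S-A replicates, against 566 to 1543 CPM in no-color cells. Without replicate 3 of every group, which leaves passage 2 alone, the median was -0.17.

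Rrm2 and Top2a, members of this list described below, are shown with the bases before their start. The windows were read from RefSeq on GRCm38.p6, written in the direction of transcription, and capitals mark CCAAT or its reverse complement ATTGG, the box bound by NF-Y that is typical of cell cycle promoters.
Rrm2, chr12:24708004-24708240, + strand, bases 250 to 14 before the start: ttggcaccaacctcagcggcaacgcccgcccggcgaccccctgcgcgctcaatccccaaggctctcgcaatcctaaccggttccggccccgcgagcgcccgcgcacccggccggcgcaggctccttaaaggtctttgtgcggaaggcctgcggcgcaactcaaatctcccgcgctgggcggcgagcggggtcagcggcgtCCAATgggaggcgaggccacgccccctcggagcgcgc
Top2a, chr11:99024190-99024439, - strand, bases 250 to 1 before the start: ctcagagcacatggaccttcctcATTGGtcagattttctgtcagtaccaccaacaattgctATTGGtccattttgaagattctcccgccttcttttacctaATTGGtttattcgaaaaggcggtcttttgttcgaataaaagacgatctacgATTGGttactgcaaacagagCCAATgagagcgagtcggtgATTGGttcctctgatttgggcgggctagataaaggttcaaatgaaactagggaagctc
The motif stood once in the Rrm2 window and 6 times in that of Top2a. Of the 30 genes of the list 25 had a window of 250 bases, and 20 of these held CCAAT on either strand (80%), against 33.8% of all 32851 windows. The share was also above that level in other lists, with 6 of 7 windows of the cadherin and epithelial-mesenchymal transition list (85.7%) and 6 of 10 of the cyclin and Cdk list (60%). The match describes letters in the window. The E-box CANNTG, the kind of site that Ngn3 and its partners bind, stood in 66.2% of all windows and in 12 of the 25.

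Rrm2 (chr12:24708241-24714146), the small subunit of ribonucleotide reductase, was at 7.95, 25.6 and 2.28 CPM in WT and at 0.524, 4.38 and 0.143 CPM in 6S-A replicates. It was lower in each pair with groups that overlapped, and the difference was -2.93 (standard error 0.81, unadjusted p = 0.00242), or -4.79 without 6S-A replicate 2. No-color cells held 3.32 to 55.4 CPM, and their own 6S-A minus WT difference was 0.47.

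Top2a (chr11:98992943-99024189), the topoisomerase of dividing cells, was at 27.9, 27.4 and 20.9 CPM in WT and at 2.62, 26.7 and 0 CPM in 6S-A replicates. The difference was -2.23 (standard error 1.07, unadjusted p = 0.0707). Only replicate 2 of 6S-A reached the WT range, and within it 1 pool had 44.1 CPM and the other 6.75 CPM. With replicates left out the difference ran from -4.60 without replicate 2 of every group to -1.18 without replicate 3 of every group. Mki67, the common marker of cycling cells, showed the same layout with 12.1, 15.2 and 11.6 CPM in WT and 3.44, 19.6 and 0 CPM in 6S-A replicates. The no-color difference was -0.63 for Top2a and -0.69 for Mki67.

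Cell cycle genes outside the list included the lowest unadjusted p of the comparison. Pclaf (chr9:65890237-65903266), a PCNA-binding factor named after its values were seen, was at 5.87, 6.10 and 5.12 CPM in WT and at 0.175, 1.23 and 0 CPM in 6S-A replicates. The groups did not overlap, and the difference was -3.97 (standard error 0.85, unadjusted p = 0.000178). Pclaf overlaps Trip4 on the opposite strand. Kntc1, a kinetochore gene also named after its values were seen, was at 2.98, 2.44 and 4.93 CPM in WT and had no read in 6S-A cells, at least 11.0-fold lower against the mean 6S-A limit of 3 reads. Exo1, an exonuclease of DNA repair, was at 10.8, 17.4 and 6.64 CPM in WT and 1.17, 3.93 and 1.14 CPM in 6S-A replicates, a difference of -2.48 (standard error 0.66, unadjusted p = 0.00149). DESeq2 gave adjusted p-values of 0.00161 for Pclaf and 0.00313 for Kntc1.

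Of the 17 cyclin and Cdk genes 12 were lower, with a median of -0.46. Ccne1, Ccne2 and Cdk6 were the 3 lower at an unadjusted p under 0.05 (17.6%, against 1.45% of all genes). Ccne2, which drives entry into S phase, was at 4.97, 10.7 and 8.54 CPM in WT and 2.86, 3.59 and 1.29 CPM in 6S-A replicates without overlap, a difference of -1.67 (standard error 0.73). Of the 8 Cdk inhibitor genes 7 were lower with a median of -0.28 beside -0.76 in no-color cells, and 0 had an unadjusted p under 0.05 in either direction. Cdkn1c was higher in each pair, by 1.5 with a standard error of equal size. Cdkn1a, which encodes p21, was at 886, 641 and 792 CPM in WT and 573, 550 and 1180.1 CPM in 6S-A cells, a difference of -0.17 (standard error 0.34) that turned to 0.18 without WT replicate 1.

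**Figure D2:**
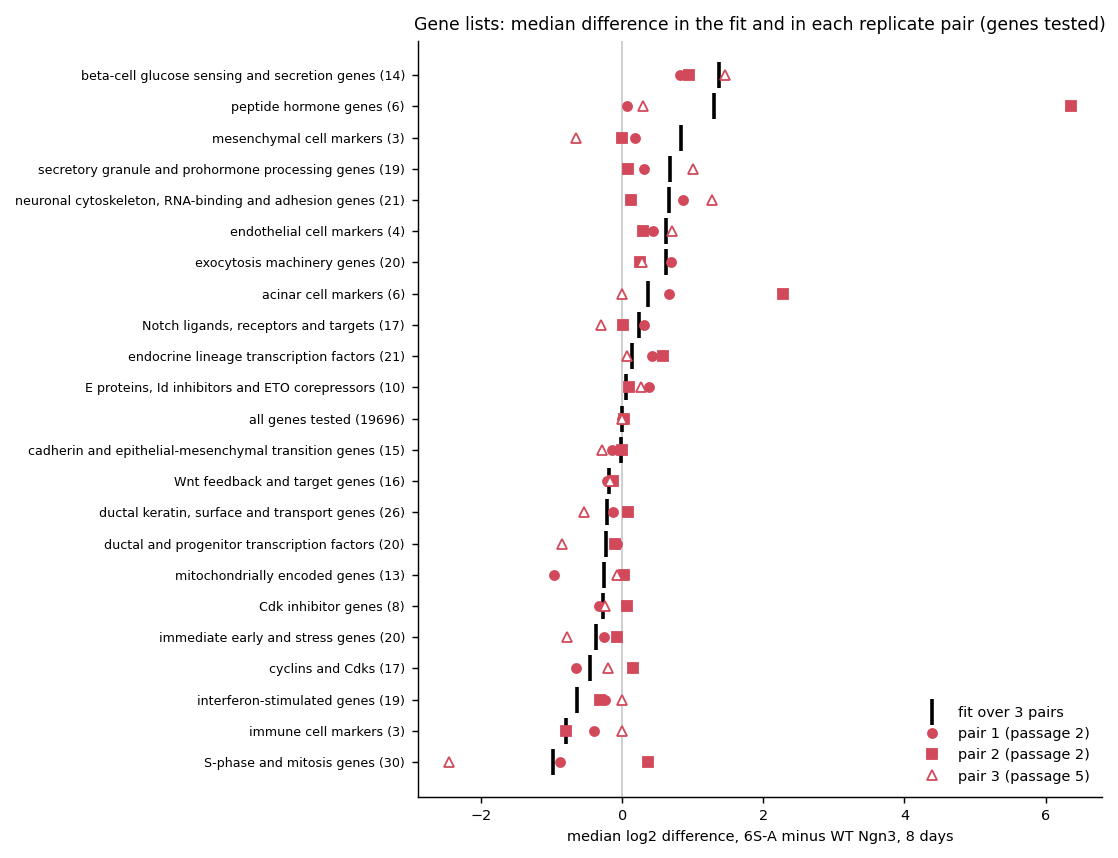
Median log2 difference, 6S-A minus WT at 8 days, of 22 gene lists and of all genes tested (bars, from the fit of all replicates), with the median of each pair of replicates as symbols. Secretion and neuronal lists lie to the right and the S-phase and mitosis list at -0.98 to the left, where its pairs range from -2.46 to 0.36.

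The plot by pair also shows how far the lists leaned on the passage 5 pair. Without replicate 3 of every group the median was 0.42 for endocrine transcription factors, 0.80 for beta cell function, 0.54 for exocytosis, 0.53 for neuronal genes and -0.34 for cyclins and Cdks. It was 0.02 for Notch genes, -0.07 for ductal transcription factors, -0.04 for ductal markers and -0.22 for immediate early genes. The Cdk inhibitors turned to 0.04 and the E protein, Id and ETO list to -0.07.

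Ductal genes had medians slightly under that of all genes. Of 20 ductal and progenitor transcription factors 17 were lower, with a median of -0.23 and 0 at an unadjusted p under 0.05. Sox9, the progenitor factor that ducts retain, was at 68.9, 245 and 263 CPM in WT and 48.1, 198 and 151 CPM in 6S-A cells. Of the 26 ductal keratin, surface and transport genes 21 were lower with a median of -0.22, and Slc4a4, the bicarbonate cotransporter, differed by -0.69 (standard error 0.28, unadjusted p = 0.025). Slc4a4 was also lower in 6S-A than in WT cells at 2 days, by 0.62 on the log2 scale (edgeR, adjusted p = 0.00652). Krt19 was at 226, 363 and 230 CPM in WT and 217, 237 and 207 CPM in 6S-A cells.

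Among the 12 genes that led the lower direction, Gip, Wnt7a, Edn1, Ccl20, Csf2 and Igf2 encode secreted signals. Wnt7a (chr6:91363981-91411363), a Wnt ligand of epithelia, was at 87.5, 107 and 84.2 CPM in WT and at 38.6, 48.7 and 27.3 CPM in 6S-A replicates. Every 6S-A replicate lay below every WT replicate. The difference was -1.32 on the log2 scale (standard error 0.30, unadjusted p = 0.000325), and between -1.43 and -1.15 when replicates were left out. Its adjusted p was 0.0231 by DESeq2 and 0.0143 in the edgeR fit of the 6 replicates alone. The 16 genes of Wnt feedback and response had a median of -0.19, with 10 lower, and Axin2 differed by -0.92 (standard error 0.41, unadjusted p = 0.035) beside -0.99 in no-color cells.

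Edn1, which encodes the vasoactive peptide endothelin 1, was at 189, 161 and 358 CPM in WT and 120, 122 and 55.9 CPM in 6S-A replicates, without overlap. Its difference was -1.22 (standard error 0.35, unadjusted p = 0.00284), and that of no-color cells was 0.78. Without replicate 3 of every group the GFP+ difference was -0.52. The GFP+ difference minus the no-color difference was -2.0 (unadjusted p = 0.000742). Ccl20, a chemokine gene, was at 19.9, 47.0 and 35.7 CPM in WT and 11.0, 14.7 and 4.43 CPM in 6S-A cells, a difference of -1.89 (standard error 0.47, unadjusted p = 0.000832), and here no-color cells differed to a like extent, by -1.93.

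Jag1, a Notch ligand, was at 88.2, 100.2 and 92.6 CPM in WT and 62.5, 61.2 and 28.3 CPM in 6S-A cells, without overlap, and differed by -0.92 (standard error 0.30, unadjusted p = 0.00587), or by -0.58 without 6S-A replicate 3. Hes6, which opposes Hes1 and is a target of neurogenins, was at 108, 288 and 143 CPM in WT and 225, 323 and 238 CPM in 6S-A replicates. Its difference at 8 days was 0.61 (standard error 0.31, unadjusted p = 0.0647). Hes6 was higher in 6S-A than in WT cells at 2 days, by 0.39 (edgeR, adjusted p = 0.0396). Of the 17 Notch genes tested 11 were higher, with a median of 0.24.

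The 12 also held Rrm2, Exo1, Zfpm2, Ier5, Pdzrn3 and Kank1. Igf2, the fetal growth factor gene, was at 23.5, 55.5 and 12.1 CPM in WT and 2.45, 10.9 and 3.00 CPM in 6S-A replicates without overlap, a difference of -2.66 (standard error 0.75, unadjusted p = 0.00263). Zfpm2, a GATA cofactor gene, was at 31.3, 53.7 and 26.7 CPM against 11.7, 25.5 and 6.43 CPM, also without overlap, and differed by -1.50 (standard error 0.40, unadjusted p = 0.00142). Of the 12 lower leaders 11 were lower in all 3 pairs and 8 did not overlap, which the ranking by p favors, beside 10% and 2.36% of all genes.

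Immediate early and stress genes were lower in 18 of 20 cases, with a median of -0.37 and 10 of them (50%) lower in all 3 pairs, against 10% of all genes. Klf6 was at 525.5, 498 and 690 CPM in WT and 479, 320 and 348 CPM in 6S-A replicates without overlap, a difference of -0.59 (standard error 0.27, unadjusted p = 0.039). Dissociation and sorting are known to induce genes of this kind, and their summed level was 8490 to 9868 CPM in WT and 6042 to 9313 CPM in 6S-A cells. Their part in the other results was not tested. The interferon list had a median of -0.65, with 14 of 19 lower, between -1.34 without 6S-A replicate 1 and -0.11 without WT replicate 1. The 13 mitochondrially encoded genes had a median of -0.27, with 12 lower and pair medians of -0.97, 0.02 and -0.07, and stood at -0.03 without replicate 1 of every group.

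Among the remaining lists, E proteins, Id inhibitors and ETO corepressors had a median of 0.05, and among them Cbfa2t3, a corepressor gene, was at 21.1, 29.6 and 19.5 CPM in WT and 39.7, 38.4 and 46.5 CPM in 6S-A cells without overlap. It differed by 0.78 (standard error 0.73), or 0.34 without WT replicate 3, and at 2 days it was higher in 6S-A cells by 0.62 (edgeR, adjusted p = 0.0185). Cadherin and epithelial-mesenchymal transition genes had a median of -0.02, with Snai2 at 14.3, 6.71 and 11.2 CPM in WT and 11.9, 19.3 and 26.9 CPM in 6S-A cells. The marker lists of other cell types had few tested members, with medians of 0.36 over 6 acinar, 0.84 over 3 mesenchymal, 0.62 over 4 endothelial and -0.80 over 3 immune genes, and 0 of these genes had an unadjusted p under 0.05.

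No-color cells were compared in the same way to ask whether the GFP+ differences were also present in cells sorted without the reporter. No gene of 19696 passed the adjusted threshold (0%), while 2414 had an unadjusted p under 0.05 (12.3%) by the same edgeR test, and DESeq2 called 605. No-color WT replicate 3 was thin, with 2397470 reads and 36.0% of its reads not aligned. The S-phase and mitosis list had a median of 0.06 in no-color and -0.98 in GFP+ cells, and the immediate early list 0.04 and -0.37. The granule list had 0.40 and 0.67 (14 and 12 of 19 higher), and the beta cell function list 0.80 and 1.37 (10 and 12 of 14 higher). None of the differences between the GFP+ and the no-color effect passed (0%; 960 at an unadjusted p under 0.05, lowest adjusted p 0.894, and 14 calls by DESeq2). Across 11074 genes of at least 5 CPM the GFP+ and no-color differences correlated with r = 0.203 and rho = 0.266, as a description, and the contrasts share no library.

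**Figure D3:**
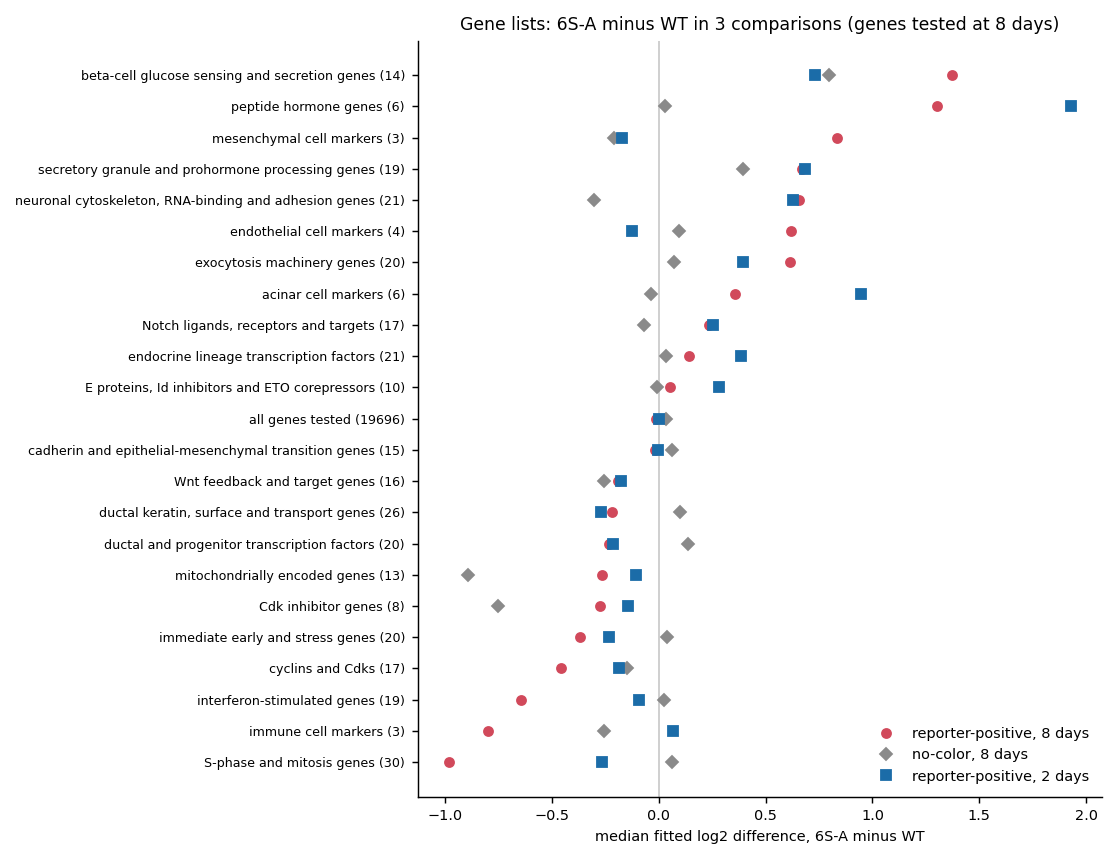
Median log2 difference, 6S-A minus WT, of each gene list in GFP+ cells at 8 days, in no-color cells at 8 days and in GFP+ cells at 2 days. The S-phase and mitosis list lies at -0.98, 0.06 and -0.27 in these comparisons and the neuronal list at 0.66, -0.31 and 0.63.

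The 2-day libraries allowed the 8-day difference to be read over genes chosen in other samples. At 2 days 147 of 23844 genes differed between 6S-A and WT (0.617%; edgeR, adjusted p under 0.05), 50 higher and 97 lower. This count ran from 2 to 661 under other settings and from 8 to 178 with replicates left out. Of the 50 higher genes 40 were also higher at 8 days, 20 of them in all 3 pairs, with a median of 0.32. Among all genes tested at 8 days 49.1% were higher, and 11.1% were higher in all 3 pairs. Of the 97 lower genes 96 were tested at 8 days and 85 were also lower, 31 in all 3 pairs, with a median of -0.37. Among all genes 10023 of 19696 were lower, and 10% were lower in all 3 pairs. At an unadjusted p under 0.05 the 8-day difference had the 2-day direction for 6 of the higher genes (Gng4, Osbpl2, Pcsk1, Pdk2, Sorcs2 and Tenm4) and 12 of the lower ones, among them Ankrd1, Foxq1, Gadd45b, Klf6, Noct and Slc4a4. Over all genes tested 1.35% were higher and 1.45% lower at that level.

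Gng4, a G protein subunit gene, was at 22.1, 10.7 and 0.379 CPM in WT and 37.9, 29.7 and 42.7 CPM in 6S-A replicates at 8 days, without overlap, a difference of 2.46 (standard error 0.85, unadjusted p = 0.00967) that was 1.12 without replicate 3 of every group. Ankrd1, a target of YAP signalling, was at 547, 596 and 948 CPM in WT and 356, 376 and 334 CPM in 6S-A cells, again without overlap. Its difference was -0.91 at 8 days (standard error 0.28, unadjusted p = 0.00486). Ankrd1 was lower in 6S-A than in WT cells at 2 days, by 0.79 (edgeR, adjusted p = 0.00652).

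**Figure D4:**
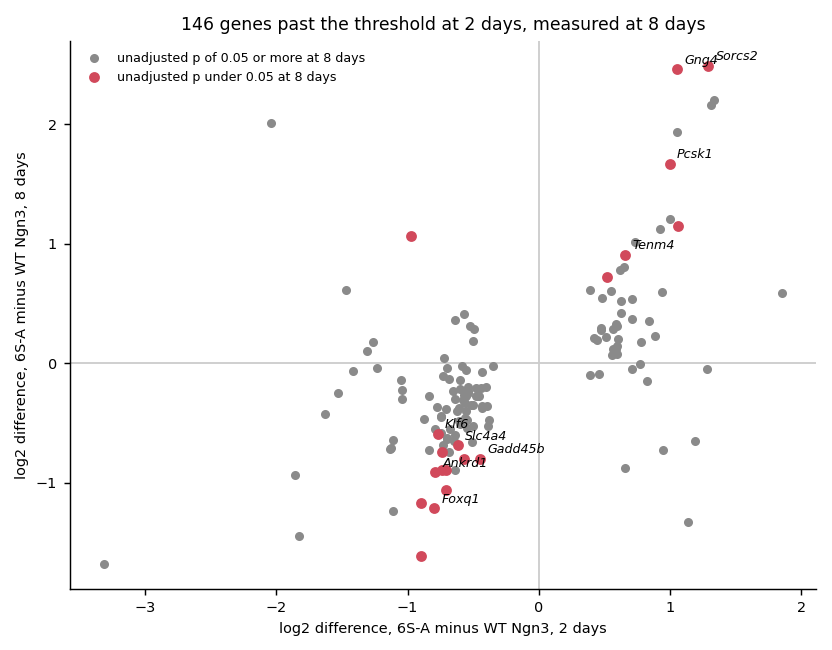
The 146 genes that passed the adjusted threshold between 6S-A and WT at 2 days and were tested at 8 days, with the log2 difference at 2 days on the horizontal and at 8 days on the vertical axis. Of the 50 higher genes 40 lie above 0 at 8 days and of the 96 lower genes 85 lie below 0.

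Genes that both proteins moved against GFP only at 2 days gave a broader view. At that time 2092 genes were higher with both proteins than with GFP only (8.77% of those tested) and 1871 were lower with both (7.85%). Of the higher set 1983 were tested at 8 days, and 65.3% were higher in 6S-A than in WT cells against 49.1% of all genes, with a median of 0.17 and pair medians of 0.22, 0.15 and 0.07. In no-color cells 1114 of the 1983 were higher, with a median of 0.12, and the median of the GFP+ minus no-color difference was 0.06. Over all genes tested 10160 of 19696 were higher in no-color cells, and these medians were 0.04 and -0.03. Among genes of at least 5 CPM they were 0.13 and 0.02 for the set and 0.10 and -0.09 for all genes. In GFP+ cells 60 genes of the set were higher (3.03%) and 6 lower (0.303%) at an unadjusted p under 0.05, against 1.35% and 1.45% of all genes. The median stayed between 0.11 and 0.23 over all alternatives, with 0.20 in passage 2 alone.

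Of the set lowered at 2 days 1870 were tested, and 32.2% were higher in 6S-A against 49.1% of all genes. The median was -0.19, with pair medians of -0.12, 0.02 and -0.43. In no-color cells the median was 0.13, beside 0.04 over all genes tested and 0.10 over those of at least 5 CPM. In GFP+ cells 99 genes of this set were lower (5.29%) and 19 higher (1.02%) at an unadjusted p under 0.05, against 1.45% and 1.35% of all genes. In passage 2 alone the GFP+ median was -0.03.

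**Figure D5:**
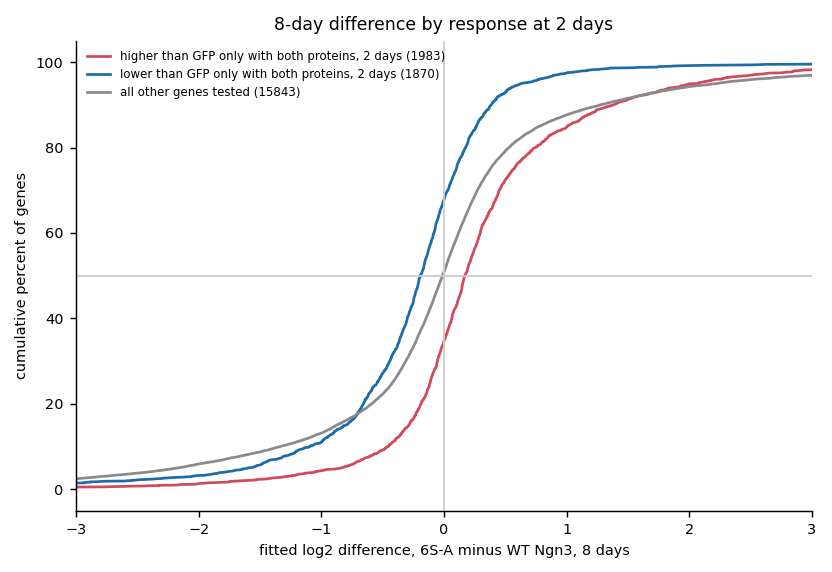
Cumulative percent of genes against the log2 difference, 6S-A minus WT at 8 days, for genes higher with both Ngn3 proteins than with GFP only at 2 days (1983), lower with both (1870) and all other genes tested. The curve of the higher set lies to the right of the other genes and that of the lower set to the left.

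The change from 2 to 8 days was tested directly. For 0 of 19589 genes (0%) did the change in the 6S-A minus WT difference pass an adjusted p of 0.05 by edgeR, 547 had an unadjusted p under 0.05, and DESeq2 called 12. Over 11072 genes the differences at the 2 times correlated with r = 0.310 and rho = 0.278, as a description across genes, which are not independent. The granule and neuronal medians were 0.68 and 0.63 at 2 days beside 0.67 and 0.66 at 8 days, and the S-phase and mitosis median was -0.27 beside -0.98. Rfx6, the leading transcription factor at 8 days, differed by 0.84 at 2 days and Isl1 by 0.72, neither past the threshold. Passage and time are partly joined in this comparison, since replicate 3 was at passage 5 at 8 days and at passage 2 at 2 days.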

How the data were processed

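Pools of 50 sorted cells had been made into Smart-seq2 libraries. Per the submitters' processing notes the authors aligned reads to mm10 with GSNAP and counted them with HTSeq 0.5.3p3. The deposited values are whole-number counts per gene, without normalization, for 46078 genes of Ensembl release 81 (45143 with a symbol) and 92 spike-ins. In the 8-day libraries 21.9% of reads were not aligned, 12.1% fell on no feature, 8.66% were ambiguous and 0.0663% were spike-in, and these rows stayed out of library sizes. Libraries needed under 30% spike-in, over 1000000 gene reads and over 10000 detected genes, and genes were tested where 5 or more libraries of their time point had reads. edgeR 4.0.16 in R 4.3.3 fitted the 12 replicates of all 4 groups at 8 days together (TMM, robust quasi-likelihood, replicate number as block), with Benjamini-Hochberg adjustment at 0.05, and was tested on simulated data. CPM are counts over TMM-scaled library sizes, and pair differences add a prior count of 2. DESeq2 1.42.0 and scran 1.30.0 size factors served as alternatives.

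The replicate numbers were used as pairs because all 18 same-numbered pairs at 8 days deviated together, with correlations of 0.126 to 0.634 (median 0.322), against a median of -0.225 for different numbers. Named genes were those the study measured around Ngn3, the 12 lowest unadjusted p-values in each direction among genes with a mean of at least 5 CPM, and in each list the 4 members of largest difference at that level. Others are named because a count or an alternative points to them, after their values were seen. The comparison and the gene lists were chosen with earlier results of these data known. Coordinates are those of GRCm38. Strand use in counting was not given in the sources used here, so overlapping genes are uncertain.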

Additional observations from a re-analysis of the deposited data

Results flagged for a closer look

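Single pools were examined for 9 genes in 18 groups of 4 or 6 pools, and in 5 of them 1 pool stood apart by Dixon's criterion. Chance marks about 1 of 20 groups of independent samples, but these genes were chosen with their values known and pools of 1 replicate are technical repeats, so the 5 cannot be set against that rate. In WT cells these were 1 pool of replicate 1 with 259.8 CPM of Gip and 2699.6 CPM of Sst. In 6S-A cells they were 1 pool of replicate 2 with 44.1 CPM of Top2a and 2.10 CPM of Pclaf, and 1 pool of replicate 1 with 0.886 CPM of Gip, from 4 reads.

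The WT pool of replicate 2 that was left out for its 849278 reads held endocrine transcripts above the highest no-color replicate. It had 10.9 CPM of Isl1 against 1.11, 25.05 CPM of Neurog3 against 0.947, 7.62 CPM of Rfx6 against 0.554, 7.62 CPM of Scgn against 1.03 and 403 CPM of Sst against 8.36. The retained pool of the same replicate held 0 CPM of Isl1 and 8.23 CPM of Sst.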

How the results depend on the processing

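For 6S-A against WT at 8 days the count of genes past the threshold was 0, and it was 19 by DESeq2, 26 with no filter on low counts, 13 with only the WT and 6S-A replicates fitted, and 0 to 3 when replicates were left out (2 without WT replicate 1, Isl1 and Scgn; 3 without 6S-A replicate 2, Aurkb, Top2a and Pbk; 1 without replicate 3 of every group, Gip). Without the replicate block the 8-day count stayed at 0 while that at 2 days was 3 in place of 147. The 2-day count was also 470 by DESeq2, 88 with edgeR's own filter, 2 with the first technical repeat, 661 with no filter, 452 with only WT and 6S-A replicates and 8 to 178 with replicates left out (28 and 62 without WT replicates 1 and 2, 8 and 44 without 6S-A replicates 1 and 3). For no-color cells it was 605 by DESeq2, 538 with no filter and 0 to 605 with replicates left out, the highest without no-color WT replicate 2. For GFP+ minus no-color it was 14 by DESeq2, 65 with no filter and 0 to 1 with replicates left out, and for 8 minus 2 days 12 by DESeq2 and 30 with no filter. The Neurog3 difference ran from -1.12 to 0.21 with replicates left out and was positive without WT replicate 2 (0.043) or 6S-A replicate 2 (0.046). Of 2589 alternative values of 137 named genes 2476 kept their sign and side of the threshold, 71 changed sign and 42 passed the threshold. The cause was not tested. Depth of 3033282 reads in WT replicate 2 limits low genes.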
